A study of Mus musculus with 8 samples.

Results

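Regions of GL261 glioma that were rich in proliferation transcripts but poor in the chemokine transcript Cxcl10 were described in 4 sections of mouse brain, 2 from animals given PBS and 2 from animals given anti-PD1. A section was divided into square bins of 360 pixels. Bins with at least 100 molecules of Mki67 and Birc5 together were called dense, and dense bins with fewer than 200 molecules of Cxcl10 were called Cxcl10-poor. The remaining dense bins are called Cxcl10-rich. Of 3596 dense bins, 1798 were Cxcl10-poor, out of 8958 bins with tissue in these 4 sections and 18080 in all 8 sections of the series. Because Cxcl10, Mki67 and Birc5 chose the bins, their values are given as description only.

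All mice carried GL261 cells, a mouse glioma line, in the brain. They received 4 intracranial treatments and were killed on day 21. PBS was the vehicle and anti-PD1 is an antibody against the checkpoint receptor encoded by Pdcd1. The groups given CpG-STAT3ASO, alone or with anti-PD1, were not part of the choice of bins. Strain and age are not stated in the labels. Transcripts of 100 genes were located by Resolve single-molecule fluorescence in situ hybridization in 1 section per deposited file. The labels do not say that the 2 sections of a group came from separate animals, so the p values measure only the spread between sections, which may be technical.

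CXCL10 and CXCL9 are chemokines that interferon gamma induces in tumour cells, macrophages and dendritic cells. They draw T cells and NK cells that carry the receptor CXCR3, and those cells are in turn a main source of interferon gamma. The same signal induces PD-L1, encoded by Cd274, and MHC class II genes. Gpnmb, a transmembrane glycoprotein gene, and the proliferation genes Mki67 and Birc5 mark the GL261 mass here.

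Between 4195896 and 6995401 molecules were listed per section. Codes read here as false-positive controls took 0.106 to 0.152% of them. The label of proliferating tumour was checked in the Cxcl10-poor bins. Gpnmb made up 206100 and 86290 CPM (molecules scaled to a total of 1000000, over the 97 genes other than Cxcl10, Mki67 and Birc5) in the PBS sections, and 153400 and 169600 in the anti-PD1 sections. In bins with fewer than 10 molecules of Mki67 and Birc5, called low-proliferation, it had 1319 to 2977 CPM. No defining gene of neurons, astrocytes or oligodendrocytes is on the panel, so an admixture of these cells could not be measured directly.

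Cxcl10-poor bins made up very different portions of the dense tissue in the 4 sections, and the sections of a treatment did not lie together. They were 466 of 714 dense bins in PBS replicate 1 (65.3%), 206 of 965 in PBS replicate 2 (21.3%), 263 of 827 in anti-PD1 replicate 1 (31.8%) and 863 of 1090 in anti-PD1 replicate 2 (79.2%). The highest and the lowest share thus came from different treatments, and the groups overlapped. The mean was 43.3% with PBS and 55.5% with anti-PD1, a difference of 12.2 points (exact two-sided permutation p = 0.667, where 6 assignments allow no p below 0.33). The sign of this difference depended on single sections. It was -9.79 points without PBS replicate 2, -11.5 without anti-PD1 replicate 2, 34.1 without PBS replicate 1 and 35.9 without anti-PD1 replicate 1.

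**Figure D1:**
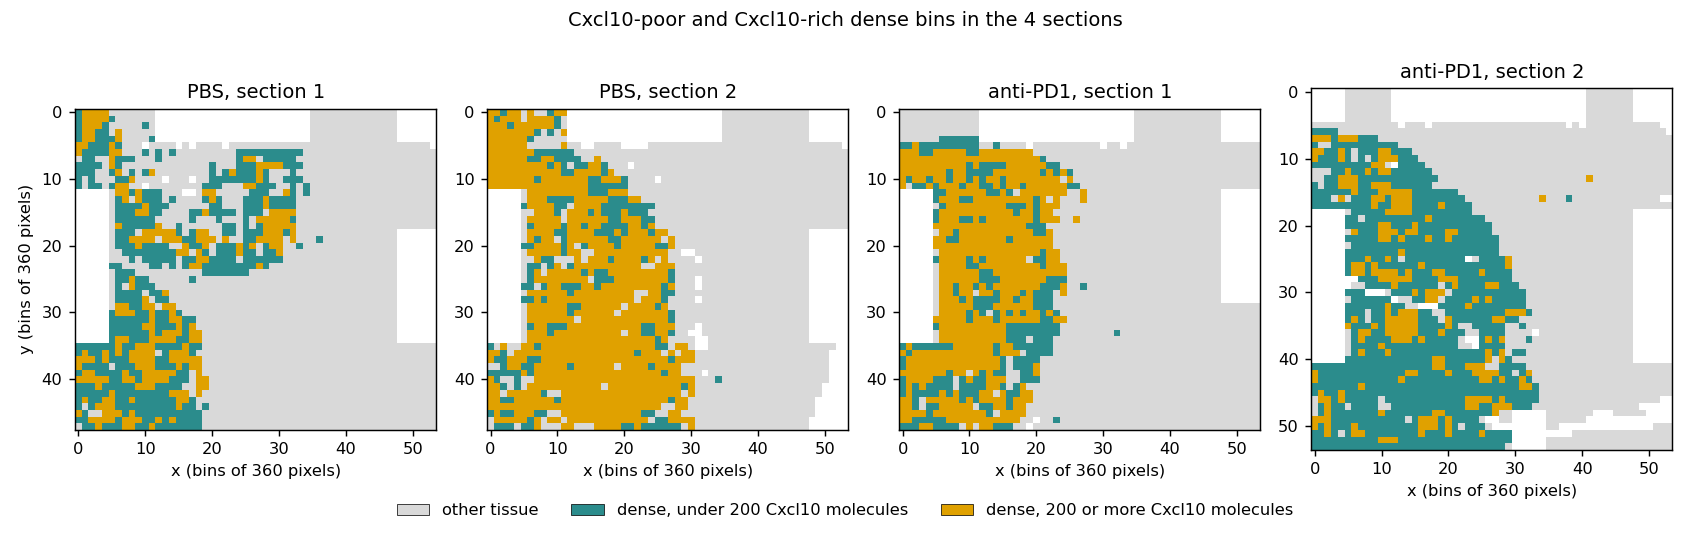
Bins of the 4 sections coloured by class, with horizontal and vertical position in bins of 360 pixels. Cxcl10-poor bins fill most of the dense mass of PBS replicate 1 (466 of 714) and anti-PD1 replicate 2 (863 of 1090) and a smaller part of PBS replicate 2 (206 of 965) and anti-PD1 replicate 1 (263 of 827).

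The median Cxcl10 count per Cxcl10-poor bin was 49 and 111 molecules in the PBS sections and 86 and 37 in the anti-PD1 sections. In Cxcl10-rich bins it was 421.5, 643, 538 and 376, in the same order. The limit did not fall in a gap between separate kinds of bin. The 242 bins with 150 to under 200 molecules had 1556 CPM of Cxcl9, 128400 of Gpnmb and 22970 of Vegfa, and the 193 bins with 200 to 249 molecules had 1640, 128400 and 22860.

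Mki67, which encodes the Ki-67 antigen of cycling cells, had 76020, 58680, 70200 and 113100 CPM in the Cxcl10-poor bins of PBS replicates 1 and 2 and anti-PD1 replicates 1 and 2. In Cxcl10-rich bins it had 67490, 58430, 68140 and 92020 CPM. Birc5, the gene of the mitotic survival factor survivin, had 24450, 19860, 21300 and 34640 CPM in Cxcl10-poor bins, against 20690, 18250, 18950 and 26440. Both genes thus had the higher share in Cxcl10-poor bins in 4 of 4 sections, though Mki67 was nearly equal in PBS replicate 2. The median count of the pair per bin was in the reverse order in each section, with 296, 293.5, 400 and 566 molecules in Cxcl10-poor bins and 353, 393, 508.5 and 580 in Cxcl10-rich bins. In anti-PD1 replicate 2 the mean count was not, with 609 against 581.6.

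Cxcl10-poor bins held fewer molecules. The median number of molecules of the 97 other genes was 3321, 4042, 5058 and 4289 per Cxcl10-poor bin and 4058, 5580, 6292 and 4967 per Cxcl10-rich bin, lower in 4 of 4 sections. For this reason genes were compared as shares of the molecules of the 97 genes, then per bin, and then with median-of-ratios size factors, which set the typical gene to no change. Molecules were also sparser along lines that recur at regular intervals, taken as borders of imaging fields. Near these lines 65.7, 24.1, 35.0 and 79.5% of dense bins were Cxcl10-poor, against 64.7, 18.0, 27.7 and 78.8% away from them. In a bin, fewer cells of a type and fewer transcripts per cell cannot be told apart.

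Cxcl10-poor bins had Cxcl10-poor neighbours more often than Cxcl10-rich bins had, and the form of their patches differed between sections. Of the dense neighbours of a Cxcl10-poor bin, 72.2, 40.4, 50.4 and 83.8% were Cxcl10-poor in PBS replicates 1 and 2 and anti-PD1 replicates 1 and 2. Around a Cxcl10-rich bin these values were 47.1, 14.5, 21.2 and 60.2%. In anti-PD1 replicate 2 a single patch of 858 bins held 99.4% of the Cxcl10-poor bins. In PBS replicate 2 they were spread over 53 patches, the largest of 48 bins and 28 of a single bin, and 97.1% of the Cxcl10-poor bins touched a Cxcl10-rich bin.

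With these bins and limits, Cxcl10-poor bins had a smaller mean distance to the edge of the dense mass in each section, by a part of a bin that varied with the settings. The mean distance to the nearest bin that was not dense was 1.91, 1.95, 2.08 and 2.55 bins for Cxcl10-poor bins and 2.06, 2.32, 2.79 and 2.63 bins for Cxcl10-rich bins. The difference was -0.327 ± 0.286 bins (SD, n = 4; exact two-sided sign permutation p = 0.13, the smallest that 16 assignments allow). Bins without tissue counted as not dense, and the border of the image did not count as an edge. Measured to the nearest tissue bin that was not dense, the mean difference was -0.308 bins, and -0.033 in anti-PD1 replicate 2. In the outermost row, 71.7, 33.5, 48.7 and 84.0% of dense bins were Cxcl10-poor. At 4 or more bins from the edge the values were 68.0, 18.2, 16.8 and 75.7%, lower in 4 of 4 sections. The outermost row also held fewer molecules, with a median of 2620, 3868, 4431 and 2838 molecules of the 97 genes per bin, against 5439, 5754, 6316 and 5010 at 4 or more bins. When bins were chosen by the Cxcl10 share of their molecules in place of its number, the difference in distance was -0.05 bins (exact p = 0.875), and it was positive in PBS replicate 1 (0.22) and anti-PD1 replicate 2 (0.20). In anti-PD1 replicate 2 it was also positive away from field borders (0.127), in bins of 180 pixels (0.079) and with a dense limit of 200 (0.010). The mean over sections was -0.113 in bins of 180 pixels, -0.81 in bins of 720 pixels, -0.161 with a dense limit of 200 and -0.577 with one of 50, in units of 360 pixels throughout.

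**Figure D2:**
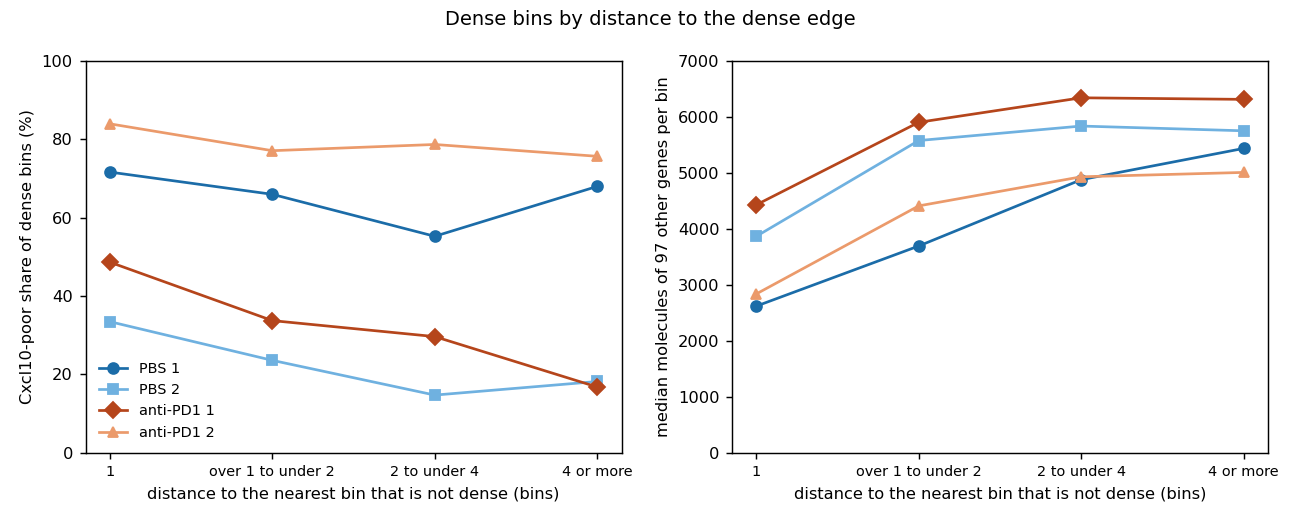
Share of dense bins that were Cxcl10-poor and median number of molecules of the 97 other genes per dense bin, by distance to the dense edge in bins, with 1 line per section. The outermost row has the highest Cxcl10-poor share in all 4 sections (71.7, 33.5, 48.7 and 84.0%) and the fewest molecules.

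The question put to the genes was which of them differed between Cxcl10-poor and Cxcl10-rich bins of the same section. Transcripts of interferon gamma, Cxcl9 and PD-L1 had a lower share in Cxcl10-poor bins, as had 5 of 7 T cell genes, 8 of 9 cytotoxic and NK cell genes and 4 of 6 dendritic cell genes. Gpnmb, Vegfa, Arg1, Rrm2 and 3 DNA methyltransferase genes had a higher share. Of 95 genes tested by limma with the section as block, 65 passed at an adjusted p under 0.05 (68.4%), 22 higher (23.2%) and 43 lower (45.3%). The median log2 difference of all genes was -0.22.

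The split between higher and lower calls depended on the scaling. With median-of-ratios scaling 50 genes passed, 30 higher and 20 lower, so that 60% were higher against 33.8% by share, and the median difference was 0.012. Per bin 64 passed, 2 higher, Vegfa among them, and 62 lower, with a median of -0.54. All 22 genes called higher by share were also called higher by median-of-ratios scaling, and 20 of the 43 lower ones were called lower in all 3 scalings. Away from the edge, in bins at least 4 bins inside, 2 genes passed (Cxcl9 and Cd274), with 20 to 165 Cxcl10-poor bins per section left, and 57 of 64 called genes that were tested there kept their direction. Away from the borders of the imaging fields 37 genes passed and in bins of 720 pixels 29 did.

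**Figure D3:**
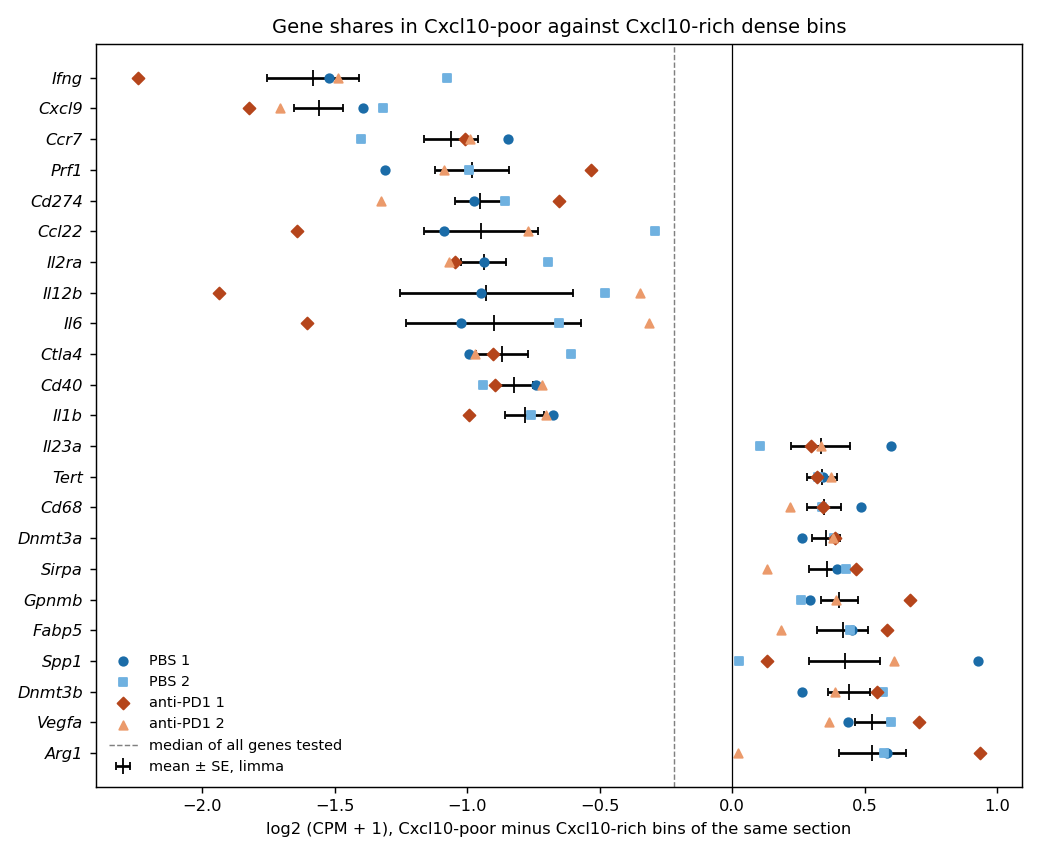
Log2 difference of CPM between Cxcl10-poor and Cxcl10-rich bins for called genes with the largest differences each way. Points are the 4 sections, bars the limma estimate ± SE, and the dashed line the median of all genes tested (-0.22). All 4 points lie on the same side of 0 for each gene, from Ifng (-1.58) to Arg1 (0.53).

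Ifng, the gene of interferon gamma, had the largest difference by share. It had 71.4, 160.6, 92.9 and 89.98 CPM in the Cxcl10-poor bins of PBS replicates 1 and 2 and anti-PD1 replicates 1 and 2, against 206.5, 339.7, 443.1 and 253.9 in Cxcl10-rich bins. This was 2.99-fold lower (log2 -1.58, SE 0.173, adjusted p = 8.79e-05), and lower in 4 of 4 sections. Its counts were sparse, since 77.2 to 86.9% of Cxcl10-poor bins held no Ifng molecule, against 61.9 to 74.9% of Cxcl10-rich bins.

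Cxcl9, the companion chemokine of Cxcl10, had 819, 1527, 1414 and 820.0 CPM in Cxcl10-poor bins. In Cxcl10-rich bins it had 2152, 3811, 5009 and 2675 CPM, so that every Cxcl10-poor value lay below every Cxcl10-rich value. It was 2.95-fold lower (log2 -1.56, SE 0.0915, adjusted p = 3.43e-06) and was also called in the bins at least 4 from the edge (-1.54). The type I interferon genes Ifnb1 and Ifna2 did not pass.

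Cd274 had 10740, 10170, 15070 and 9373 CPM in Cxcl10-poor bins and 21120, 18420, 23740 and 23480 in Cxcl10-rich bins. The classes did not overlap, and the gene was 1.94-fold lower (log2 -0.95, SE 0.0942, adjusted p = 4.35e-05), also at least 4 bins inside (-1.31). All genes tested were lower in 45.3% and higher in 23.2% of cases. Of the 8 checkpoint genes, 4 were lower, 1 was higher and 3 did not pass, with a median of -0.66 against -0.22 for all genes. The lower ones were Cd274, Pdcd1lg2, which encodes the ligand PD-L2 (-0.68), the PD-1 gene Pdcd1 (-0.63) and Ctla4, an inhibitory receptor gene of T cells (-0.87). Lag3, another inhibitory receptor gene, was higher by share (0.29, adjusted p = 0.0125) and stood at -0.038 per bin. Lag3 had a far higher share in low-proliferation than in Cxcl10-rich bins (3.08 on the log2 scale). Tnfrsf9, a costimulatory receptor gene, had 1046, 2693, 2436 and 1111 CPM against 1625, 2495, 2205 and 1478, higher in 2 sections and lower in 2 (-0.20, adjusted p = 0.181).

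The T cell list had 5 of 7 tested genes lower and none higher by share, with a median of -0.52 (-0.29 by median-of-ratios scaling). Over all genes tested, 45.3% were lower and 23.2% higher. Il2ra, the interleukin-2 receptor alpha gene of activated and regulatory T cells, had 581.8, 293.9, 831.7 and 420.4 CPM in Cxcl10-poor bins and 1114, 477.0, 1720 and 883.0 in Cxcl10-rich bins (log2 -0.94, SE 0.0844, adjusted p = 3.49e-05). Each section showed the difference, although PBS replicate 2 was low in both classes. Cd8a, the gene of the cytotoxic T cell coreceptor, had 497.6, 176.1, 606.1 and 590.2 CPM against 612.0, 182.2, 726.2 and 756.4. Its difference was smaller (-0.24, adjusted p = 0.0294) and was close to that of the median gene. The call for Cd8a was lost with median-of-ratios scaling (-0.0086), without PBS replicate 1 (-0.22, adjusted p = 0.107), without anti-PD1 replicate 1 (-0.23, adjusted p = 0.0996) and without anti-PD1 replicate 2 (-0.20, adjusted p = 0.111).

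Foxp3, the regulatory T cell factor gene, was lower by 0.59 on the log2 scale, though not in PBS replicate 2 (89.2 against 86.5 CPM), and lost its call away from field borders (-0.39, adjusted p = 0.155). Cd4 was also lower (-0.52), though not called by median-of-ratios scaling (-0.29, adjusted p = 0.0515). Its share in low-proliferation bins was 5.51 higher on the log2 scale than in Cxcl10-rich bins, so much of it need not come from T cells. Cd3d, a subunit gene of the T cell receptor complex, did not pass (-0.44, adjusted p = 0.053), and exceeded the false-positive level in only 2 of the 8 sums of bins. Summed over the 7 genes, the list had 2590 to 4625 CPM in Cxcl10-poor bins and 2924 to 6138 in Cxcl10-rich bins.

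Among cytotoxic and NK cell genes, 8 of 9 tested were lower, where 45.3% of all genes tested were lower. None was higher and the NK receptor gene Klrd1 did not pass. The median was -0.55 by share and -0.32 by median-of-ratios scaling. Some calls were lost with that scaling, among them that of Gzma (-0.46, adjusted p = 0.0569). Prf1, the perforin gene, had 175.3, 97.6, 83.9 and 118.4 CPM against 435.5, 195.3, 121.8 and 253.0 (log2 -0.98, adjusted p = 0.000472), and exceeded the false-positive level in 6 of 8 sums. Nkg7, a granule protein gene, had 672.9, 680.7, 768.2 and 597.5 CPM against 948.0, 958.9, 1164 and 919.7. Its values were even across sections and did not overlap between the classes (-0.55, SE 0.0692, adjusted p = 0.000194). Gzmb, the granzyme B gene, differed by -0.67 (adjusted p = 0.00603) with 342.0, 523.6, 337.2 and 132.4 CPM against 685.2, 514.3, 693.7 and 210.0, and was slightly higher in the Cxcl10-poor bins of PBS replicate 2. The call for Gzmb was lost without PBS replicate 1 (adjusted p = 0.072) and without anti-PD1 replicate 2 (adjusted p = 0.0572).

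The dendritic cell list had a median of -0.29, close to that of all genes (-0.22), and -0.057 by median-of-ratios scaling. Ccr7, the lymph node homing receptor gene of mature dendritic cells and naive T cells, had 405.9, 180.9, 527.1 and 234.2 CPM in Cxcl10-poor bins and 730.3, 479.7, 1061 and 465.7 in Cxcl10-rich bins (log2 -1.06, SE 0.102, adjusted p = 4.0e-05). Cd40, a costimulatory receptor gene of antigen-presenting cells, had 966.8, 587.8, 724.2 and 720.1 CPM against 1614, 1128, 1346 and 1184 (-0.82). Of the 6 dendritic cell genes, 4 were lower, where 45.3% of all genes tested were lower. The 2 others, Flt3, a growth factor receptor gene (0.31), and the chemokine receptor gene Xcr1 (-0.22), did not pass. Beside Ccr7 the lower ones were Irf8, a transcription factor gene of type 1 dendritic cells and myeloid cells (-0.38), Itgax, which encodes CD11c (-0.29), and Batf3, a factor gene of type 1 dendritic cells (-0.29).

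Itgax and Batf3 differed little from the median gene and stood at -0.058 and -0.057 by median-of-ratios scaling, where neither passed. Of 4 antigen-presentation genes, Cd40 and Cd86 (-0.25) were lower and 2 did not pass, where 45.3% of all genes tested were lower. Cd74, the MHC class II chaperone gene, had 228600, 366500, 308200 and 212400 CPM against 245000, 368000, 332900 and 241000. Cd74 did not pass by share (-0.10, adjusted p = 0.0783). With size factors from median ratios it was called higher (0.13, adjusted p = 0.0398).

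Il1b, an inflammatory cytokine gene of myeloid cells, had 884.4, 1483, 1458 and 1063 CPM in Cxcl10-poor bins and 1415, 2511, 2905 and 1731 in Cxcl10-rich bins (log2 -0.78, SE 0.0733). Among all genes tested 45.3% were lower. Of 7 TLR and NF-kB genes, 5 were lower and 2, the CpG DNA receptor gene Tlr9 and the NF-kB inhibitor gene Nfkbia, did not pass. Among these, Tnf was lower by 0.56 on the log2 scale, while Il6 (-0.90), Il12b (-0.93) and Il12a (-0.59) were at the false-positive level in 8, 8 and 5 of the 8 sums. The calls for Il6 and Il12b were lost without PBS replicate 1, anti-PD1 replicate 1 or anti-PD1 replicate 2 (adjusted p of 0.0623 to 0.173). In all, 22 tested genes were at that level in at least 1 sum, and 9 of them were called.

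The chemokine genes of myeloid cells were lower in 4 of 5 cases, where 45.3% of all genes tested were lower. Ccl3 and Ccl4, which encode attractants of monocytes and T cells, were lower by 0.59 and 0.44 on the log2 scale. Ccl22, an attractant of regulatory T cells, was lower by 0.95 but exceeded the false-positive level in 4 of 8 sums and lost its call without PBS replicate 1 (adjusted p = 0.0508). Ccl5, another T cell attractant gene, had 2333, 3255, 2803 and 1026 CPM against 2423, 3593, 3747 and 1296. Ccl5 was close to the median gene (-0.24, adjusted p = 0.021), stood at -0.0052 by median-of-ratios scaling and lost its call without anti-PD1 replicate 1 (adjusted p = 0.0996) and without anti-PD1 replicate 2 (adjusted p = 0.084). Ccr2, a monocyte receptor gene, did not pass (-0.094).

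**Figure D4:**
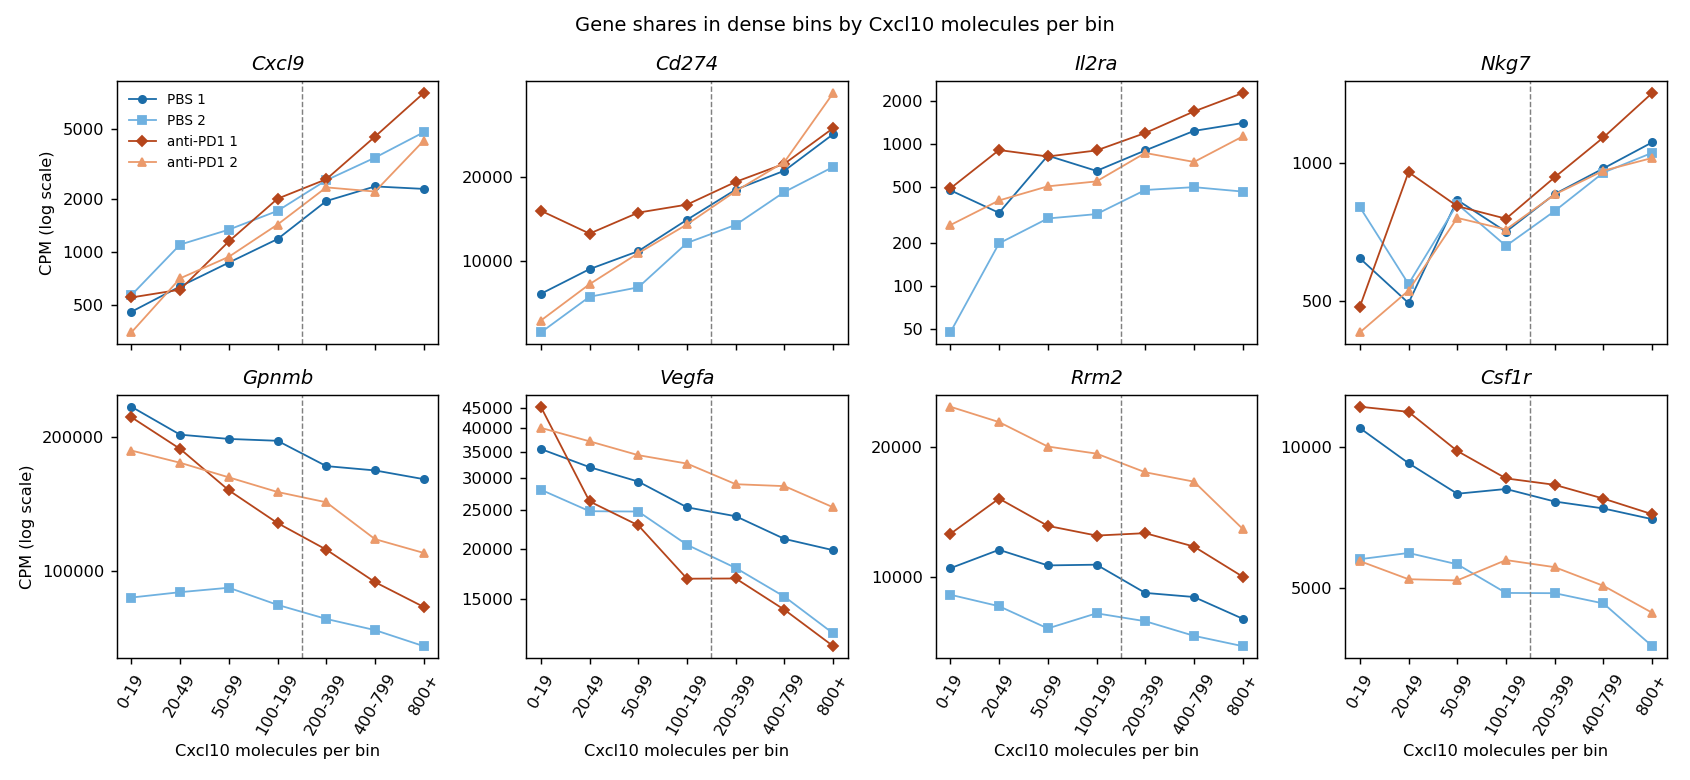
CPM (log scale) of 8 genes in dense bins grouped by Cxcl10 molecules per bin, with 1 line per section and the limit of 200 dashed. From the fewest to the most Cxcl10 molecules, the mean over sections goes from 480.5 to 4843 CPM for Cxcl9 and from 8593 to 30040 for Cd274, and from 182000 to 105300 for Gpnmb and from 37280 to 17260 for Vegfa.

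Some of these shares changed by degrees with Cxcl10 among the Cxcl10-poor bins themselves, and others did not. In bins with 0 to 19, 20 to 49, 50 to 99 and 100 to under 200 Cxcl10 molecules, the mean over sections was 480.5, 763.3, 1073 and 1583 CPM for Cxcl9. For Cd274 it was 8593, 9383, 11100 and 13760 CPM, but in anti-PD1 replicate 1 alone it was 15130, 12520, 14890 and 15910. Gpnmb went the other way, with 182000, 163600, 150800 and 139500 CPM, and so did Vegfa, with 37280, 30080, 27870 and 23870 CPM. In PBS replicate 2 alone Gpnmb had 87120, 89570, 91650 and 83890 CPM. The mean of Ifng showed no steady order, with 182.1, 64.0, 125.1 and 125.8 CPM, but its first value rested on PBS replicate 2. There Ifng had 567.2 CPM in 8 bins, and 129.9 in the last of these steps. From the first to the last step it rose from 52.2 to 120.3 CPM in PBS replicate 1. It rose from 64.35 to 129.1 in anti-PD1 replicate 1 and from 44.8 to 123.9 in anti-PD1 replicate 2. Cd8a showed no steady order in the mean, with 401.7, 510.2, 486.8 and 460.5, nor did Arg1, with 1597, 1752, 1718 and 1280. The number of molecules of the 97 genes per bin also rose over these steps, from 3175 to 4601, and the part of that in the trends was not tested. The class with the fewest Cxcl10 molecules held only 8 bins in PBS replicate 2 and 288 in anti-PD1 replicate 2.

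Gpnmb, whose product is found on tumour cells and on phagocytes, had a higher share in Cxcl10-poor bins. It had 168300, 72140, 96280 and 129200 CPM in Cxcl10-rich bins, below the Cxcl10-poor values of each section given above. It was 1.32-fold higher (log2 0.40, SE 0.0687, adjusted p = 0.00124), and PBS replicate 2 was low in both classes. Per bin the difference was 0.075 (adjusted p = 0.33), with 352.0 to 719.2 molecules in a Cxcl10-poor bin and 387.0 to 722.9 in a Cxcl10-rich bin. The other 2 genes of the tumour and stem list went differently, with the stem cell antigen gene Ly6a lower (-0.26; -0.03 by median-of-ratios scaling) and Cd47, the gene of an inhibitor of phagocytosis, not called (-0.052).

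Rrm2, a ribonucleotide reductase gene of cells in S phase, was the only proliferation gene outside the choice of bins. It had 10840, 8199, 13060 and 21920 CPM in Cxcl10-poor bins and 8911, 7304, 11510 and 16360 in Cxcl10-rich bins. It was higher in each section (1.20-fold, log2 0.26, SE 0.0597, adjusted p = 0.0044), with anti-PD1 replicate 2 high in both classes. Per bin, Rrm2 stood at -0.064 and did not pass. The DNA methyltransferase genes Dnmt3b (0.44), Dnmt3a (0.35) and Dnmt1 (0.29) and the telomerase gene Tert (0.34) were also higher by share, and of these Dnmt1 was negative per bin (-0.037). Il23a, a subunit gene of interleukin-23, was higher by 0.33 and lost its call without PBS replicate 1 (0.25, adjusted p = 0.133) and without anti-PD1 replicate 2 (0.33, adjusted p = 0.0897).

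Vegfa, the gene of the main growth factor of blood vessels and a target of hypoxia signalling, had 30180, 22130, 23050 and 36320 CPM in Cxcl10-poor bins and 22290, 14610, 14150 and 28240 in Cxcl10-rich bins. It was higher in 4 of 4 sections (1.44-fold, log2 0.53, SE 0.0646, adjusted p = 0.000182). It was called higher in all 3 scalings, with a per-bin difference of 0.20 (adjusted p = 0.00991). Low-proliferation bins had a still higher share of Vegfa, at 30090 to 40700 CPM. In the bins at least 4 from the edge Vegfa stood at 0.28 (adjusted p = 0.0757).

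Genes of suppressive myeloid cells and growth factors were divided, with 4 of 8 higher, 3 lower and 1 not called, and a median of 0.21. For all genes tested the shares were 23.2% higher and 45.3% lower. Arg1, which encodes arginase of suppressive macrophages, had 1843, 2815, 946.6 and 542.4 CPM against 1231, 1893, 494.4 and 533.9 (log2 0.53, SE 0.126, adjusted p = 0.00551). It was nearly equal between the classes in anti-PD1 replicate 2, and its call was lost without PBS replicate 1 (0.51, adjusted p = 0.0571). Spp1, the osteopontin gene, had 10340, 2405, 1386 and 1917 CPM against 5430, 2361, 1264 and 1256 (0.42, adjusted p = 0.021). PBS replicate 1 stood far above the other sections, and the call for Spp1 was lost without PBS replicate 1 (0.26, adjusted p = 0.13) and without anti-PD1 replicate 2 (0.36, adjusted p = 0.13). The other higher genes of the list were Vegfa and Fabp5, a fatty acid-binding protein gene (0.42). Il10, an anti-inflammatory cytokine gene (-0.73, above the false-positive level in 3 of 8 sums), the nitric oxide synthase gene Nos2 (-0.22) and the cytokine receptor gene Csf2rb (-0.21) were lower, the last 2 with the other sign by median-of-ratios scaling (0.012 and 0.023).

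PBS replicate 1 held 2 separate dense masses, 366 and 338 bins in size, and 68.6 and 60.9% of their bins were Cxcl10-poor. The masses differed within the Cxcl10-poor class. Spp1 had 21050 CPM in the first and 1237 in the second, Arg1 2715 and 1059, and Cd68 9109 and 2920. Rrm2 had 6534 and 14600, and Gpnmb 187400 and 224500. The high Spp1 of this section thus lay in 1 of its masses, for which there is no replicate.

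Macrophage genes showed no common direction by share, with 1 of 7 higher, 2 lower and 4 not called. Among all genes tested, 23.2% were higher and 45.3% lower. Cd68, a lysosomal gene of phagocytes, had 5780, 1904, 2464 and 2963 CPM against 4133, 1508, 1941 and 2549 (log2 0.35, SE 0.0647, adjusted p = 0.00178). Adgre1, which encodes F4/80, had 989.6, 503.4, 774.7 and 493.2 CPM against 860.7, 443.6, 659.5 and 463.0, higher in 4 of 4 sections but not past the test (0.18, adjusted p = 0.0529). The scavenger receptor gene Msr1 (-0.32) and the matrix protein gene Tgfbi (-0.21) were lower, and Tgfbi had the other sign by median-of-ratios scaling (0.026). Msr1 lost its call without anti-PD1 replicate 2 (-0.26, adjusted p = 0.0813). The endotoxin coreceptor gene Cd14 (0.11) and the mannose receptor gene Mrc1 (0.16) did not pass by share. The scaling changed these calls. By median-of-ratios scaling Cd68 (0.58), Adgre1 (0.41), Mrc1 (0.39) and Cd14 (0.34) were called higher, and Msr1 (-0.083) and Tgfbi were not called. The list median was then 0.34, against 0.012 for all genes. Per bin Cd14 was called lower (-0.22), and Cd68 stood at 0.017. Summed over the 7 genes, the list had 25530, 23080, 25690 and 19520 CPM in Cxcl10-poor bins. In Cxcl10-rich bins it had 25060, 22900, 31030 and 22060 CPM. The sum was thus slightly higher in Cxcl10-poor bins in both PBS sections and lower in both anti-PD1 sections. Tgfbi made up most of it, with a mean of 15940 CPM in Cxcl10-poor and 18470 in Cxcl10-rich bins.

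Both measured genes of the microglia list were higher by share and negative per bin. Csf1r, the receptor gene on which microglia and macrophages depend, had 8956, 5200, 9763 and 5467 CPM against 7433, 4327, 7747 and 5195 (log2 0.24, adjusted p = 0.00846; -0.093 per bin). The call for Csf1r was lost in bins matched on molecules (0.083, adjusted p = 0.17) and with bins chosen by the Cxcl10 share of molecules (0.057, adjusted p = 0.378). Tmem119, a gene of resident microglia, had 3782, 16700, 17560 and 26920 CPM against 2753, 14570, 17660 and 17790 (0.31, adjusted p = 0.0156; -0.017 per bin). Tmem119 was nearly equal between the classes in anti-PD1 replicate 1. Its call was lost without PBS replicate 1 (0.26, adjusted p = 0.115) and without anti-PD1 replicate 2 (0.22, adjusted p = 0.0927). The 2 genes differed outside the dense mass. Csf1r had a mean of 33460 CPM in low-proliferation bins, against 7347 in Cxcl10-poor and 6176 in Cxcl10-rich bins. Tmem119 had 8607 CPM in low-proliferation bins, against 16240 and 13190, and which cells held it was not tested. Ptprc, the CD45 gene of all leukocytes, was lower (3181, 2294, 4046 and 2190 CPM against 3841, 2664, 5555 and 2731; -0.32, adjusted p = 0.00237), though close to the median gene. Stat3, whose product mediates signals of interleukin-6 and interleukin-10, did not pass (-0.088, adjusted p = 0.111) and had the other sign by median-of-ratios scaling (0.15).

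**Figure D5:**
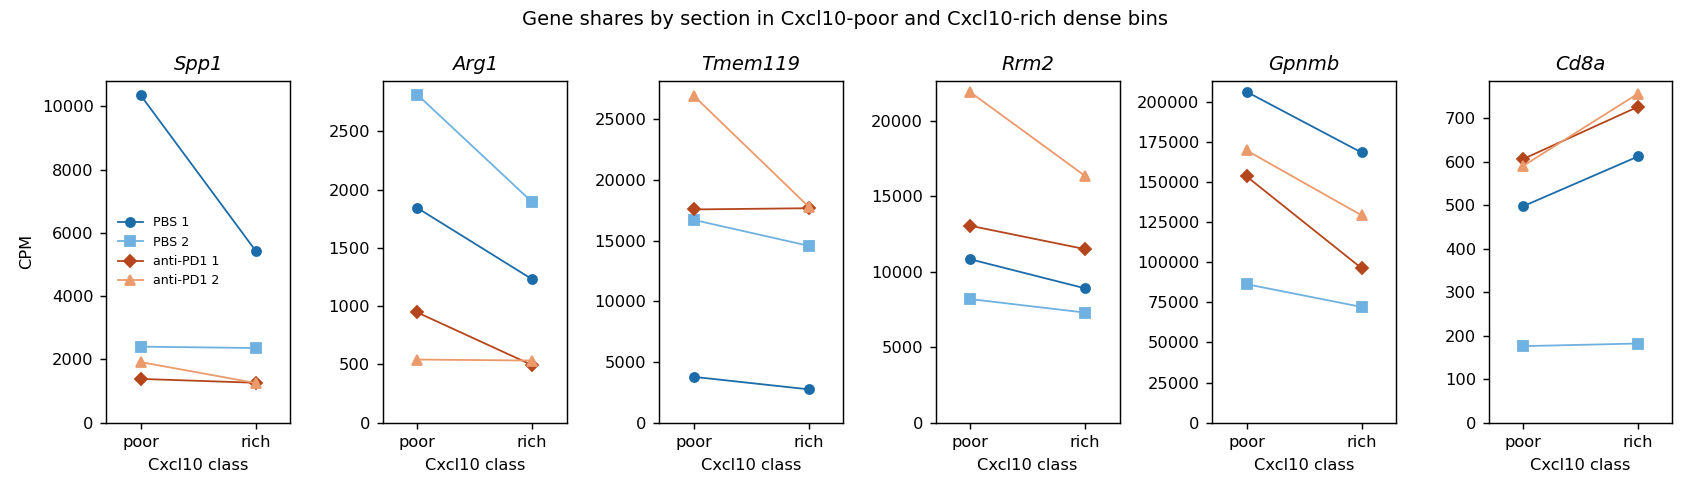
CPM in the Cxcl10-poor and Cxcl10-rich bins of each section, joined by a line, for Spp1, Arg1, Tmem119, Rrm2, Gpnmb and Cd8a. The sections differ more from each other than the classes do for Spp1, where PBS replicate 1 has 10340 and 5430 CPM and the other sections 1256 to 2405.

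Genes that are high outside the tumour mass were found among both the higher and the lower ones. Of the 22 higher genes, 10 had a higher share in low-proliferation than in Cxcl10-rich bins in 4 of 4 sections (among them Cd68, Crbn, Csf1r, Dnmt3a, Fabp5, Lag3, Scarb1, Sirpa and Vegfa), and 9 had a lower share there in 4 of 4 (among them Arg1, Gpnmb, Rrm2 and Tert). Of the 43 lower genes these counts were 6 (Cd4, Cd86, Csf1, Fas, Il12a and Il6) and 24. Such counts were not made for all genes tested, so no excess among the higher or the lower genes is read from them. A list of 10 genes found earlier to be low in dense and high in low-proliferation bins of these sections had 5 higher, 2 lower and 3 not called, where 23.2% of all genes tested were higher and 45.3% lower. Its summed share was 18210 to 30580 CPM in Cxcl10-poor bins, 15480 to 25550 in Cxcl10-rich bins and 321200 to 410500 in low-proliferation bins, and it was higher in Cxcl10-poor than in Cxcl10-rich bins in each section. No gene of this list was at 0 in all 4 sections. Sirpa, the receptor gene for Cd47 and a member of the list, was called higher (0.36) but stood at 0.095 in bins at least 4 from the edge and at 0.094 (adjusted p = 0.207) in bins matched on molecules. Lag3 stood at 0.12 (adjusted p = 0.14) in matched bins. The part of such tissue, of the edge and of the number of molecules in the other differences was not tested one by one. With bins matched on molecules 67 genes were called, 19 higher and 48 lower.

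Anti-PD1 was then set against PBS within the Cxcl10-poor bins. No gene passed in limma (0 of 94, 0%), 7 had an unadjusted p under 0.05, and limma's voom also called none, with 7 at an unadjusted p under 0.05. Arg1 stood at -1.67 and Spp1 at -1.61 in anti-PD1 against PBS, and Tmem119 at 1.45, each with an adjusted p of 0.133. These genes had the smallest p values of the 94 tested. For Tmem119 the nearest sections of the treatments had 16700 CPM (PBS replicate 2) and 17560 CPM (anti-PD1 replicate 1). PBS replicate 1 was the highest section for Spp1 and the lowest for Tmem119. Away from the borders of the imaging fields 2 genes passed, Tmem119 and the dendritic cell gene Xcr1, whose counts were at the false-positive level.

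The difference between Cxcl10-poor and Cxcl10-rich bins was not shown to depend on the treatment. In the interaction test no gene passed in limma (0 of 95, 0%), 3 had an unadjusted p under 0.05, and voom called none, with 6 at that level. The 3 genes were Gzma, the granzyme A gene (0.81), Cxcl9 (-0.41) and Gzmc, the granzyme C gene (-0.89), each with an adjusted p of 0.608. With median-of-ratios scaling 2 genes passed, Gpnmb (0.44) and Gzma (0.99).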

How the data were processed

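Each deposited file gives the x, y and z position and the target name of every molecule that the authors called in 1 section, by Resolve in situ hybridization of 100 genes per the labels. These other values are positions in pixels of a size not given. Seurat 4.2.0 is named in the submitters' processing notes with no role, and spot calling is not given in the sources used here. Depth is 4195896 to 6995401 molecules per section.

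From the deposited molecules, 28 codes starting with FP were left out and taken as false-positive codes. Molecules were summed per section over the bins of each class. Values are log2(CPM + 1), with Cxcl10, Mki67 and Birc5 left out of the total, and genes averaging under 10 molecules per sum were not tested. A gene was at the false-positive level when it did not exceed the 90th percentile of these codes. The log2 values were fitted with limma 3.58.1 (R 4.3.3, lmFit, eBayes with trend, two-sided, Benjamini-Hochberg over all genes tested, threshold 0.05). The section was the block between the classes and in the interaction. The main fit of anti-PD1 against PBS in Cxcl10-poor bins had no block. Shares of bins and distances were tested by exact permutation over sections in Python 3.11.15. The scripts were tested on simulated data. Tissue bins held at least 20 molecules.

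Named genes are up to 12 each way with the largest change among called genes with 1 direction in all 4 sections, and a set list of 26. Other genes were named as members of the lists or after their values were seen. The bins, lists, limits and tests were chosen with earlier results of these data known. The replicate numbers of the PBS and anti-PD1 sections did not pair them (correlation of deviations -0.183). Some genes of the panel are counted but not reported here by name.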

Additional observations from a re-analysis of the deposited data

How the results depend on the processing

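The difference between the treatments in the Cxcl10-poor share ran from -11.5 to 35.9 points when 1 section was left out, with the sign turned without PBS replicate 2 or anti-PD1 replicate 2. The difference in distance to the edge ran from -0.411 to -0.198 bins. The number of called genes between the classes ran from 44 to 68, and 14 higher and 26 lower genes were called without each section in turn. It was 2 in bins at least 4 from the edge, 37 away from field borders and 29 in bins of 720 pixels, with fewer bins in each. For anti-PD1 against PBS in Cxcl10-poor bins it was 2 away from field borders, and 0 in each other fit, including that with the replicate number as a block (1 gene at an unadjusted p under 0.05) and that with the pairing crossed (6 genes). The interaction gave 2 with median-of-ratios scaling, and 0 in each other fit. Of the named genes, the sign turned at least 4 bins inside for Ccl22 (0.24), Cd8a (0.14), Il12b (0.11), Ccl5 (0.10) and Il23a (-0.10). It turned per bin for Cd14 (-0.22), Mrc1 (-0.17), Adgre1 (-0.15), Csf1r (-0.093), Rrm2 (-0.064) and Tmem119 (-0.017). It turned by median-of-ratios scaling for Stat3 (0.15), Cd74 (0.13) and Tnfrsf9 (0.035), with the 3 genes of the choice in the total for Stat3 (0.034) and Cd74 (0.022), and with a Cxcl10 limit of 100 for Tnfrsf9 (0.024). The cause was not tested. Over named genes and alternatives, 842 values kept direction and call, 139 lost the call, 33 gained it and 17 turned sign. The 2 sections per treatment and the sparse counts of cytokine genes limit what can be detected.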

Other observations

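Under the same limits, the sections given CpG-STAT3ASO held few dense bins, and most of these were Cxcl10-poor. They were 23 of 23 and 24 of 33 dense bins with CpG-STAT3ASO alone, and 22 of 22 and 69 of 78 with the combination. In these bins Gpnmb had 12480 to 35250 CPM and the macrophage gene Cd68 16020 to 44220 CPM. In the Cxcl10-poor bins of the PBS and anti-PD1 sections Gpnmb had 86290 to 206100 and Cd68 1904 to 5780 CPM. Such a difference was not particular to these genes. Csf1r had 34770 to 52180 CPM with CpG-STAT3ASO, alone or in the combination, against 5200 to 9763. The median Cxcl10-poor bin held 976 to 2317 molecules of the 97 other genes in the sections given CpG-STAT3ASO, against 3321 to 5058. The Cxcl10 limit is a count, so bins with few molecules meet it more readily, and the part of this was not tested. Cxcl9 had 5884 and 3099 CPM in these bins with CpG-STAT3ASO alone. With the combination it had 39.3 and 3203 CPM, against 819 to 1527 in the PBS and anti-PD1 sections. No test was made, since so few bins met the limits.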
